A study of Homo sapiens with 4 samples.

Results

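The 10 genes described here encode ETS transcription factors measured in MDA-MB-231, a widely used human cell line derived from a triple-negative breast cancer and mesenchymal in character. They are the PEA3 factors ETV1, ETV4 and ETV5, the founding members ETS1 and ETS2, the ELF factors ELF1 and ELF4, the ternary complex factors ELK1 and ELK3, and GABPA. They were taken by symbol from probe sets that carry exactly 1 gene symbol, with the brightest probe set over the arrays standing for each gene. All 10 were found among the 18417 genes so named, and all 10 were bright enough to be among the 13813 genes tested, whose mean log2 intensity was at least 6.58. RNA came from untreated cells expressing either a non-specific short hairpin RNA (shNS) or a hairpin against DBC1 (shDBC1), with 2 biological replicate arrays of each. DBC1, whose current symbol is CCAR2, is a nuclear protein that inhibits the deacetylase SIRT1 and has been reported as a partner of PEA3 factors. Both lines carry a hairpin construct in the same cell line, and the labels name 1 hairpin against DBC1 without saying whether each line is a clone or a pool.

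ETS factors share a winged helix-turn-helix domain, the ETS domain, that binds DNA around a GGAA core. PEA3 factors are transcribed and activated downstream of RAS-ERK signalling, are degraded through the COP1 ubiquitin ligase, and are known in carcinoma cells for driving matrix metalloproteinase genes and invasion. ELK factors work with serum response factor at growth factor-responsive promoters, while GABPA pairs with a GABPB subunit at promoters of housekeeping and mitochondrial genes.

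CCAR2, the target of the hairpin, read 9.62 and 9.41 on the shNS arrays and 8.76 and 8.16 on the shDBC1 arrays, as log2 intensity. Both shDBC1 readings lay below both controls, at 48.1% of the control intensity on the group means. The difference did not pass the limma test with group as its sole term (adjusted p 1). That fit called 0 of 13813 genes at an adjusted p under 0.05 (0% of genes tested), with a smallest adjusted p of 0.589, and 475 genes (3.44%) had an unadjusted p under 0.05. No statement on a single gene below rests on a difference that passed. SIRT1 itself differed by -0.01 (interval -0.35 to 0.32), and by 0.0015 after repeated quantile normalisation. The arrays had medians between 7.32 and 7.40. The 6 markers set for a mesenchymal line (VIM, CD44, CAV1, AXL, SPARC and FN1) all passed the intensity filter. Of the 6 luminal markers, CDH1, EPCAM, KRT19, GATA3 and FOXA1 also passed, and the oestrogen receptor gene ESR1 did not. Total RNA from whole cultures cannot tell fewer cells expressing a gene from less RNA per cell.

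By the sign of the difference alone, 9 of the 10 ETS factor transcripts were lower in shDBC1 cells, with ETS1 the exception, and the sizes were small. GABPA counts among the 9 only on the brighter of its probe sets. ETV1 (-0.03, SE 0.20), ETS2 (-0.06, SE 0.11) and ELF4 (-0.02, SE 0.11) count with differences smaller than their standard errors (SE). With 1 array left out, from 7 to 9 of the 10 were below zero. For 5 of the 10 (ETV4, ETV5, ELF1, ELK1 and ELK3) both shDBC1 arrays read below both shNS arrays, an arrangement found for 13.2% of all genes tested. Both shDBC1 arrays read above both controls for 0 of the 10, against 11.6% of all genes. The median difference was -0.15 over the 10 genes, where the median of all genes was 0.0065 and 47.7% of all genes were below zero. The median absolute difference was 0.152 for the 10 genes and 0.0896 for all genes, with median SEs of 0.130 and 0.135. None of the 10 passed the limma test, each with an adjusted p of 1, and 1 of them, ELK3, had an unadjusted p under 0.05. The 10 genes share 4 arrays, so they are not independent readings of the knockdown. Without the first shNS array the median difference was -0.24, and with the probe sets of each gene averaged it was -0.116.

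**Figure D1:**
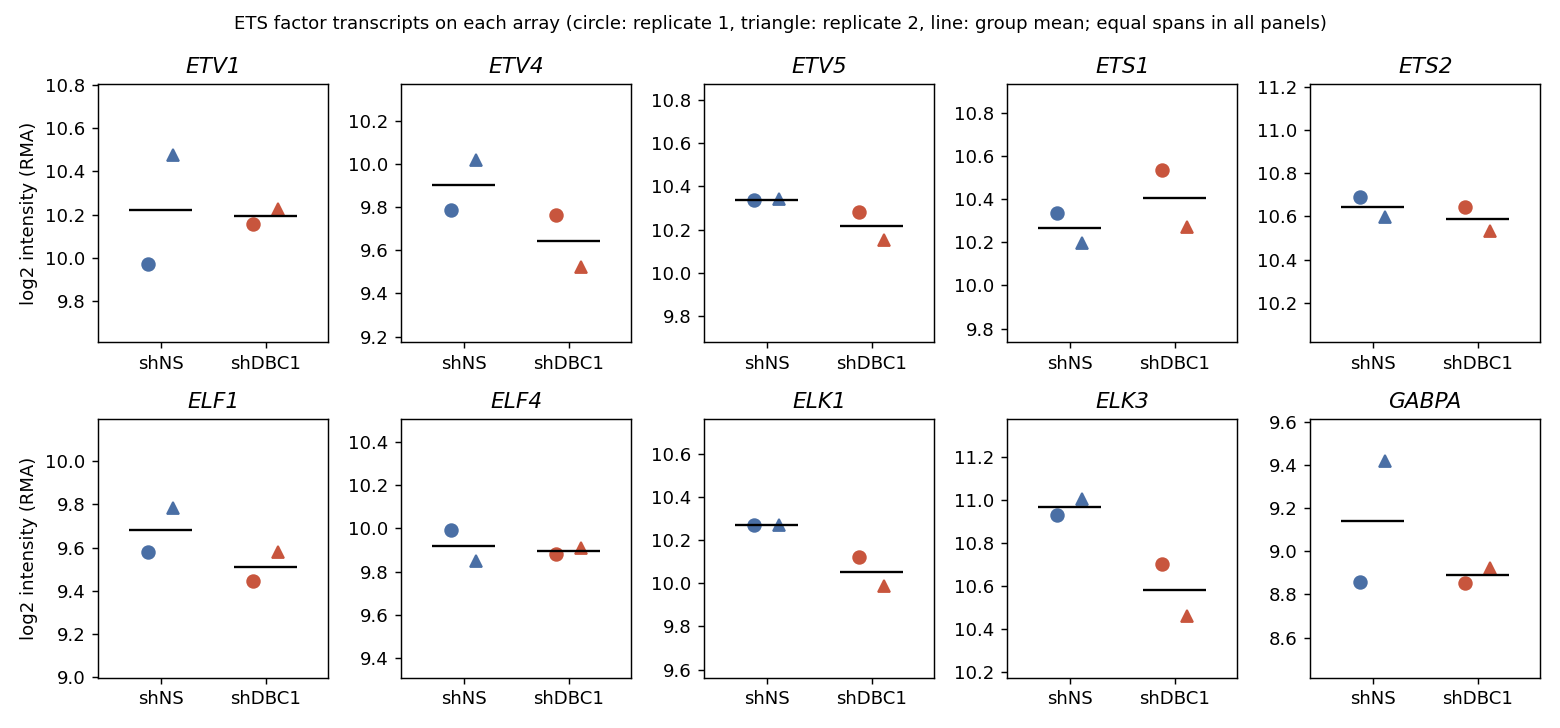
Log2 intensity (vertical axis) of the 10 ETS factor genes in shNS and shDBC1 cells, 1 panel per gene, with circles for replicate 1, triangles for replicate 2 and lines for group means. Each panel spans the same number of log2 units around the gene's own mean. The shDBC1 points of ETV4, ETV5, ELF1, ELK1 and ELK3 sit below both shNS points, and the shNS points of ETV1 and GABPA are 0.51 and 0.56 apart.

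Among the PEA3 factors, ETV4 and ETV5 read lower on both shDBC1 arrays, and ETV1 did not separate the lines. ETV4, also called E1AF or PEA3 and the founding member of its subfamily, read 9.79 and 10.02 on the shNS arrays and 9.76 and 9.52 on the shDBC1 arrays. The higher shDBC1 reading was thus close to the lower control, and the 2 groups did not overlap. The group means were 9.91 ± 0.16 and 9.64 ± 0.17 (SD, n = 2), a difference of -0.26 (SE 0.15, limma adjusted p 1). The 95% interval, -0.66 to 0.13, covered anything from 1.58-fold lower to 1.10-fold higher. With 1 array left out it ranged from -0.38 to -0.14. ETV5, also known as ERM, read 10.34 on both shNS arrays and 10.28 and 10.15 on the shDBC1 arrays. Its controls were 0.0031 apart and its shDBC1 arrays 0.13 apart, with no overlap, and the group means differed by -0.12 (SE 0.11, interval -0.41 to 0.17, limma adjusted p 1). Leaving out 1 array gave values from -0.19 to -0.06. ETV1, also known as ER81, read 9.97 and 10.48 in shNS and 10.16 and 10.23 in shDBC1. Both shDBC1 readings fell inside the range of the controls, whose gap of 0.51 was far wider than the difference of -0.03 (SE 0.20, interval -0.55 to 0.49). Leaving out shNS array 2 gave 0.22 and leaving out shDBC1 array 1 gave 0.0048, so its sign turned. The interval for ETV1 included a 1.46-fold decrease and a 1.40-fold increase, so these arrays bound its change only loosely.

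The founding ETS genes went in opposite directions by sign, and in both the 2 groups overlapped. ETS1, which is known for partnering RUNX1 and AP-1 and for a mesenchymal and endothelial role, read 10.34 and 10.20 in shNS and 10.54 and 10.27 in shDBC1. Its second shDBC1 array lay between the controls, and the difference was 0.14 (SE 0.14, interval -0.24 to 0.51, limma adjusted p 1). It was the only one of the 10 genes with a positive difference. Leaving out shDBC1 array 2 gave 0.27 and leaving out shDBC1 array 1 gave 0.0039. ETS2, its closest paralog and likewise a target of ERK phosphorylation, read 10.69 and 10.60 in shNS and 10.64 and 10.53 in shDBC1. Replicate 2 read lower than replicate 1 by 0.092 in shNS and by 0.11 in shDBC1, both larger than the difference of -0.06 between the lines (SE 0.11, interval -0.35 to 0.24). The ETS2 interval covered from 1.28-fold lower to 1.18-fold higher.

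The ternary complex factors gave the clearest separation among the 10 genes, although neither passed the test. ELK3, also called NET, which represses serum response genes until ERK signalling turns it into an activator, read 10.93 and 11.00 in shNS and 10.70 and 10.46 in shDBC1. Both shDBC1 arrays lay below both controls, and the shDBC1 arrays were themselves farther apart than the controls. The means were 10.97 ± 0.052 and 10.58 ± 0.17 (SD, n = 2), which is 1.31-fold lower in shDBC1. The difference of -0.38 (SE 0.13, interval -0.73 to -0.04) had a limma adjusted p of 1 and an unadjusted limma p of 0.0362. With each array left out in turn it ranged from -0.50 to -0.26. ELK1, the ERK substrate that recruits Mediator to immediate early promoters, read 10.27 on both shNS arrays and 10.12 and 9.99 on the shDBC1 arrays. Replicate 2 minus replicate 1 was -0.0018 in the controls and both shDBC1 arrays lay lower, with a difference of -0.22 (SE 0.11, interval -0.51 to 0.07, limma adjusted p 1). ELK1 and ETV5, the members with the closest control pairs, had the smallest SEs of the 10.

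ELK3 has 2 starts in the RefSeq promoter table (GRCh38.p14), and the 250 bases before each are shown because it had the smallest p of the 10 genes. The ETS core, GGAA on this strand or TTCC for its complement, is in capitals. Both lie on the plus strand, at chr12:96194125-96194374 for the upstream start and chr12:96255248-96255497 for the downstream start.
ELK3 upstream start: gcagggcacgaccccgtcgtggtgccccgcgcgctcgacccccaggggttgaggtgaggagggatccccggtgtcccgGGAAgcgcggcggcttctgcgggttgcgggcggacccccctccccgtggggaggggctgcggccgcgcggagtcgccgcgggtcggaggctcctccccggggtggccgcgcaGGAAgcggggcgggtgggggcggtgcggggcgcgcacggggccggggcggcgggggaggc
ELK3 downstream start: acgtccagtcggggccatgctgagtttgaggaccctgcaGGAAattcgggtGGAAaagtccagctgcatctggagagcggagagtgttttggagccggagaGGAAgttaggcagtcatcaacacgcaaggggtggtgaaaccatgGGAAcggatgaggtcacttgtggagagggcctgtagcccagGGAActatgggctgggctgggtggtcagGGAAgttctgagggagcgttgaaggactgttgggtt
The first stretch is 82% G or C and holds 2 cores, and the second is 57.2% G or C and holds 6. A GGAA core in either orientation occurs in 95.5% of all 35116 promoters of 300 bases in the table, so its presence marks no gene out. Whether the probe set tells the starts apart was not checked, and no binding was measured here.

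The ELF factors differed less. ELF1, an ETS factor broadly active at housekeeping and haematopoietic promoters, read 9.58 and 9.78 in shNS and 9.44 and 9.58 in shDBC1. The second shDBC1 array lay just below the first control (9.5794 against 9.5796), so the groups touched without overlapping. Replicate 2 read higher than replicate 1 in both lines, by 0.20 in shNS and 0.14 in shDBC1. That held for 3 of the 10 members, ELF1, ETV1 and GABPA, and for 33.3% of all genes tested. The ELF1 difference was -0.17 (SE 0.13, interval -0.51 to 0.17, limma adjusted p 1), and from -0.27 to -0.07 with an array left out. ELF4, also called MEF and known as an activator of innate immune and perforin genes, read 9.99 and 9.85 in shNS and 9.88 and 9.91 in shDBC1. Its shDBC1 readings lay between the controls, with a difference of -0.02 (SE 0.11, interval -0.32 to 0.27) that became 0.05 without the first shNS array. The ELF4 interval allowed at most a 1.25-fold decrease or a 1.21-fold increase.

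GABPA, the ETS subunit of the factor also known as nuclear respiratory factor NRF-2, was measured by 2 probe sets that disagreed in sign. Where their probes map in the genome was not checked here, and whether the brighter set reads GABPA alone was not tested. The number of the dimmer set, 8068039, lies close to those of ETS2 (8068593) and ERG (8070297), which like GABPA are on chr21. That of the brighter, 8133030, lies between those of TFB1M (8130438, chr6) and MET (8135601, chr7). The brighter, which stands for the gene by the rule, read 8.86 and 9.42 in shNS and 8.86 and 8.92 in shDBC1. The second shNS array was high and the other 3 lay within a narrow range, so the groups overlapped. Its difference was -0.25 (SE 0.21, interval -0.81 to 0.31, limma adjusted p 1), and 0.03 without the second shNS array. The other probe set read 8.34 and 8.26 in shNS and 8.34 and 8.32 in shDBC1, a difference of 0.03 (SE 0.11, interval -0.25 to 0.31). On that probe set no array stood out, and the lines were not distinguishable. The partner subunit genes pointed lower. GABPB1 read 9.48 and 9.52 in shNS and 9.46 and 9.16 in shDBC1, a difference of -0.19 (SE 0.14). GABPB2 read 7.90 and 8.29 against 7.83 and 7.65, a difference of -0.36 (SE 0.17). Both had a limma adjusted p of 1. Of 9 mitochondrial genes reported as GABPA targets, 7 had a positive and 2 a negative difference, where 47.7% of all genes were negative. Both shDBC1 arrays lay above both controls for 5 of the 9 (11.6% of all genes tested) and below for 0. In this list 0 were called by limma (0 at an unadjusted p under 0.05), and the list median was 0.06 against 0.0065 for all genes. Without shNS array 1 that median was 0.0051. The mitochondrial rRNA methyltransferase gene TFB1M and the mitochondrial transcription factor gene TFB2M each differed by 0.14 (SE 0.12 and 0.10), and the cytochrome c oxidase subunit gene COX7A2 by 0.12 (SE 0.15), which was -0.02 without the first shNS array.

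The table of promoters held 7 of the 10 ETS factor genes, all but ETV4, ETV5 and ETS1. CCGGAAGT, a high-affinity ETS site that contains the GGAA core, was sought on both strands in the 300 bases from 250 before to 50 after each start. It was found in 1 of the 7 genes, GABPA, and in 4.95% of the 27305 genes of the table. Among the other ETS genes ELK4 held it, and among the mitochondrial genes in the table COX5B held it 2 times in 1 promoter. ERBB2, from the list of reported ETS targets, also held it 2 times, and CUL4A held it among the partners and regulators. The GABPA, ELK4 and COX5B stretches are shown, for the 1 described factor with the site, another ETS gene and a reported GABPA target, each read on the strand that has CCGGAAGT (GRCh38.p14, site in capitals).
GABPA: ggagccagggCCGGAAGTagagcggagg
ELK4: agcccctcccCCGGAAGTgacgtgtagc
COX5B first site: aagcccgcccCCGGAAGTccctcctgtc
COX5B second site: cagcttgttcCCGGAAGTtttgctgcta
They lie at chr21:25734895-25734922 (minus strand), chr1:205632016-205632043 (minus strand), chr2:97646015-97646042 (plus strand) and chr2:97646047-97646074 (plus strand), and the GABPA site begins 67 bases before the start. COX5B itself, a cytochrome c oxidase subunit gene named here for its sites, differed by -0.07 (SE 0.12), and ELK4 by -0.09 (SE 0.16). A sequence match describes these letters only, and occupancy was not measured.

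For most of the 10 genes, replicate arrays of 1 line were as far apart as the lines themselves. In 7 of the 10 genes the gap between the replicates of at least 1 line was larger than the difference between the group means. ELK1, ELK3 and ETV4 were the others. The shNS gap was the larger quantity in 6 genes and the shDBC1 gap in 5. The median absolute gap of the 10 genes was 0.142 in shNS and 0.132 in shDBC1, compared with 0.172 and 0.152 over all genes tested. Both medians were below those of all genes, whose median absolute difference between the lines was smaller too (0.0896 against 0.152). The share of all genes with a gap larger than the difference was not counted. The 7 of 10 can therefore not be read as particular to these genes. The number of arrays limits the precision. An exact permutation test of 2 arrays against 2 cannot give a two-sided p below 0.333.

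**Figure D2:**
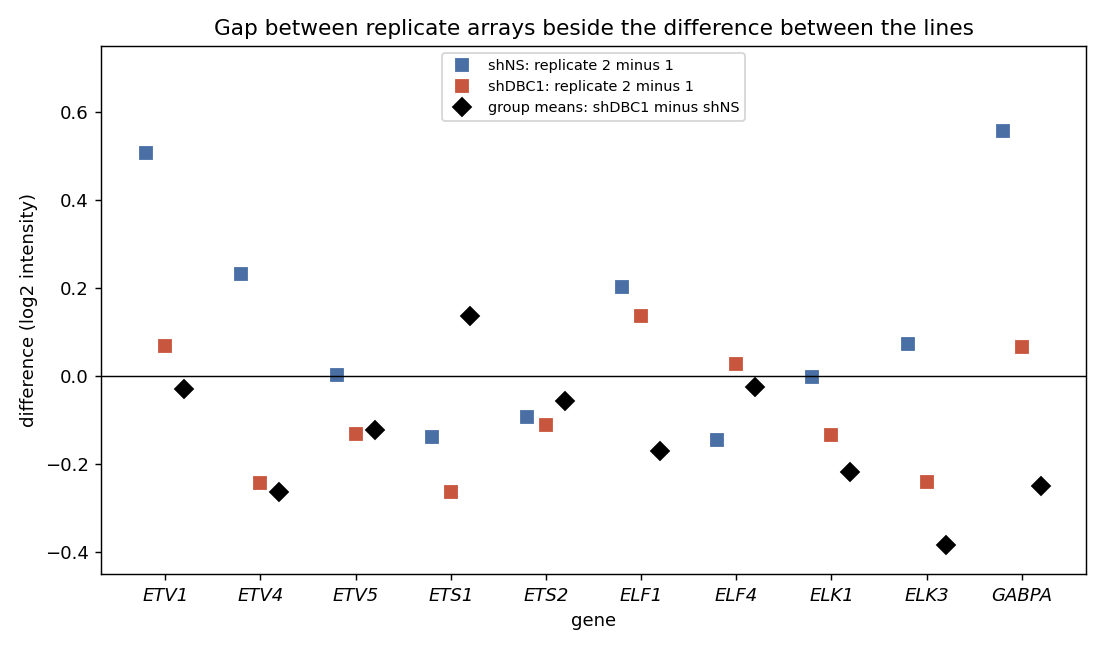
For each of the 10 ETS factor genes, squares show replicate 2 minus replicate 1 within shNS (blue) and within shDBC1 (red), and diamonds the shDBC1 minus shNS difference of group means, all in log2 intensity. Diamonds lie farther from zero than both squares for ELK1, ELK3 and ETV4 only, and the widest squares are the shNS gaps of ETV1 and GABPA.

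Across the wider ETS family, 27 of 28 human ETS genes had a probe set with a single symbol, ETV6 being the exception, and 23 passed the intensity filter. ERG and FLI1, known from endothelial and blood cells, the mammary gene ELF5, and SPIC fell below it. Of the 23, 17 had a negative difference, against 47.7% of all genes. Both shDBC1 arrays lay below both controls for 7 (13.2% of all genes tested) and above for 3 (11.6%). The interval excluded 0 for 1 of the 23, ELK3. By limma 0 were called, and 1 had an unadjusted p under 0.05, against 3.44% of all genes. The 13 genes outside the 10 described had a median of -0.01, and 8 of the 13 were below zero. That median depended on the dimmer genes. With the filter at the 50th percentile it was -0.104 over 7 tested genes, beside -0.146 for the 10 described.

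The epithelial ETS genes SPDEF and ELF3 had the largest negative values of the family together with the widest intervals. SPDEF, a luminal and secretory cell factor, read 8.47 and 9.34 in shNS and 8.21 and 8.53 in shDBC1, a difference of -0.54 (SE 0.32, interval -1.39 to 0.31). Its second shDBC1 array was above its first control, so the groups overlapped. The SPDEF difference was -0.10 without shNS array 2 and -0.97 without shNS array 1. ELF3, an epithelium-restricted factor, read 8.41 and 9.03 in shNS and 7.71 and 8.92 in shDBC1, a difference of -0.40 (SE 0.46). Replicate 2 was higher by 0.62 in shNS and 1.21 in shDBC1, and without the first shDBC1 array the ELF3 difference was 0.20. The mean of the 6 luminal markers (CDH1, EPCAM, ESR1, KRT19, GATA3 and FOXA1) put the arrays in the same order, as did CDH1, EPCAM and KRT19 singly but not GATA3, FOXA1 or ESR1. That mean log2 intensity was 8.37 and 8.63 in shNS and 8.13 and 8.49 in shDBC1. Of the luminal markers, all but ESR1 passed the filter. ESR1, below the filter, and GATA3 (-0.47, SE 0.12) had both shDBC1 arrays below both controls, an arrangement found for 13.2% of all genes tested. The part of the luminal markers in the SPDEF and ELF3 values was not tested. The mean of the 6 mesenchymal markers put the arrays in that order too, at 11.597 and 11.735 in shNS and 11.459 and 11.622 in shDBC1. Singly, FN1 gave the order, at 11.51 and 12.13 in shNS and 11.07 and 11.60 in shDBC1. VIM, CD44, CAV1, AXL and SPARC did not. EHF, another epithelial member, read 11.40 and 11.65 against 11.55 and 11.48, a difference of -0.01 (SE 0.13) that was 0.0023 after repeated quantile normalisation.

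Differences were small for the ETS repressors and the remaining members. ERF, an ERK-regulated ETS repressor, read 8.59 and 8.56 in shNS and 8.47 and 8.46 in shDBC1, which did not overlap, and differed by -0.10 (SE 0.10). ETV3, a repressor related to ERF, had both shDBC1 arrays above both controls, at 9.02 and 9.00 against 9.19 and 9.08, a difference of 0.13 (SE 0.11). SPI1 (0.15), ETV3L (0.10), SPIB (0.06) and ETV2 (0.03) had positive differences, and ELF2 (-0.15), ETV7 (-0.08) and FEV (-0.0079) negative ones. For ETV2, SPIB, ELF2, ELK4, FEV and EHF the sign turned in at least 1 of the fits that left out an array. SPI1 and SPIB are known from blood cells, and of the leukocyte markers CD68 and ITGAM passed the intensity filter while PTPRC and CD3E did not. The mean of these leukocyte markers was 7.30 and 7.23 in shNS and 7.28 and 7.30 in shDBC1.

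**Figure D3:**
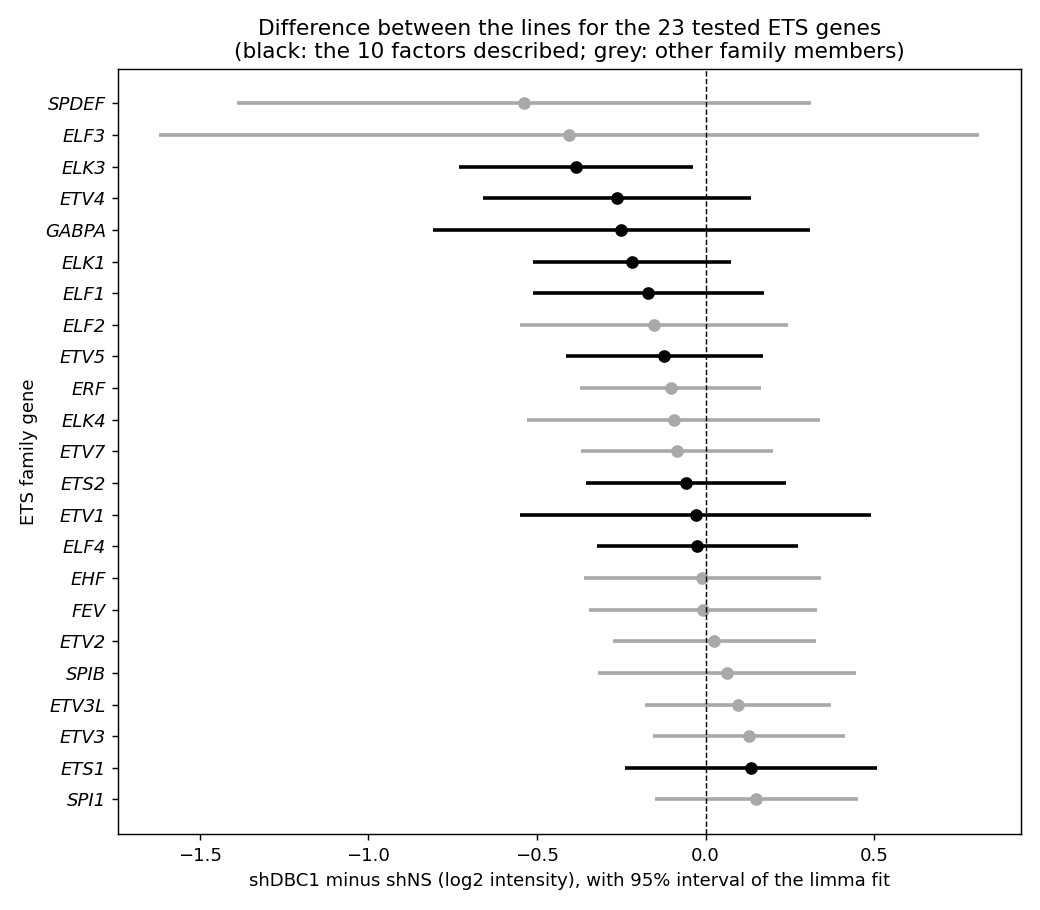
Difference between the lines (points, log2 intensity, horizontal axis) with 95% intervals of the limma fit (bars) for the 23 tested ETS genes, ordered by value, with the 10 described genes in black and other family members in grey. The interval of ELK3, -0.73 to -0.04, is the only one that excludes 0, and SPDEF and ELF3 have the widest intervals.

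Partners and regulators of ETS factors were not called by limma either (0 of 20 tested, and 0 at an unadjusted p under 0.05). Both shDBC1 arrays lay below both controls for 5 (13.2% of all genes tested) and above for 2 (11.6%). In the list 14 of 20 were below zero, against 47.7% of all genes, and the list median was -0.07. That median was 0.0051 without the second shDBC1 array. TRIB2, a pseudokinase that acts as a COP1 adaptor, read 10.00 and 10.76 in shNS and 9.72 and 9.99 in shDBC1, a difference of -0.53 (SE 0.29). Its value was -0.14 without shNS array 2 and -0.91 without shNS array 1. RUNX1, an ETS1 partner, differed by -0.17 (SE 0.11) with no overlap between the groups. COP1, the ligase component that marks PEA3 factors for degradation, differed by 0.0067 (SE 0.12) and by -0.01 after median centring. CIC, the repressor that ERK signalling removes from the ETV1, ETV4 and ETV5 promoters, differed by -0.0099 (SE 0.11), and by 0.01 after repeated quantile normalisation. SRF, the partner of the ELK factors, differed by -0.15 (SE 0.16), and by 0.01 without the second shDBC1 array. The COP1, CIC and SRF intervals each included 0, and the widest of these bounds was -0.56, for SRF.

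Transcripts that read out RAS-ERK signalling had the lowest median of the lists over all 4 arrays, -0.25 for 14 tested genes, with 11 of 14 below zero. Of all genes, 47.7% were below zero. None of the list was called by limma, and 2 had an unadjusted p under 0.05, against 3.44% of all genes. Both shDBC1 arrays lay below both controls for 5 of the 14 (13.2% of all genes tested) and above for 1 (11.6%). The median was -0.0941 without shNS array 2, where the 10 ETS factors had -0.100, and -0.146 without shDBC1 array 2. ETV4 and ETV5, commonly counted among such readouts, are not in this list. The ephrin receptor gene EPHA4 read 8.06 and 8.10 in shNS and 7.43 and 7.48 in shDBC1, which is 1.54-fold lower. Its arrays were 0.04 apart in shNS and 0.051 apart in shDBC1, and the difference of -0.63 (SE 0.10, interval -0.90 to -0.35) had a limma adjusted p of 1. SPRY4, a feedback inhibitor of receptor tyrosine kinase signalling, read 10.01 and 10.30 in shNS and 9.78 and 9.55 in shDBC1, a difference of -0.49 (SE 0.16). The ERK phosphatase gene DUSP6, a standard readout of the pathway, had its shDBC1 arrays at 10.35 and 10.36 between controls of 10.16 and 10.95. Its difference of -0.20 (SE 0.28) turned to 0.19 without the second shNS array. MYC had the largest positive difference of the list, at 10.93 and 11.00 in shNS and 11.15 and 11.46 in shDBC1, a difference of 0.34 (SE 0.15).

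Genes reported as targets of PEA3 or other ETS factors held 2 large values in a list whose median, -0.06, was small. Of 19 tested genes 12 were below zero, against 47.7% of all genes. Both shDBC1 arrays were below both controls for 6 (13.2% of all genes tested) and above for 3 (11.6%). In this list 0 were called by limma, and 2 had an unadjusted p under 0.05, against 3.44% of all genes. MMP1, interstitial collagenase, read 11.38 and 11.05 in shNS and 9.95 and 10.01 in shDBC1. All array-to-array gaps within a line were smaller than the difference of -1.24 (SE 0.15, interval -1.63 to -0.84, limma adjusted p 1), which is 2.36-fold lower. CXCR4, a chemokine receptor, read 7.83 and 7.82 against 7.33 and 7.03, a difference of -0.65 (SE 0.14). PLAU, the urokinase gene with a well-known ETS and AP-1 enhancer, read 11.52 and 11.51 in shNS and 11.60 and 11.41 in shDBC1. Its groups overlapped and its difference was -0.01 (SE 0.12), or 0.0019 after repeated quantile normalisation. MCL1, an anti-apoptotic gene and reported ELK and ETS target, differed by -0.20 (SE 0.13) without overlap. MMP3, MMP7, MMP10, MMP13, SPP1 and HGF were below the intensity filter.

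Serum response genes reported as ELK and SRF targets had a median near that of all genes, with 6 of 10 tested genes below zero and a median of -0.02. VCL, which encodes the adhesion protein vinculin, stood apart at 11.12 and 11.23 in shNS against 10.67 and 10.39 in shDBC1. Its difference was -0.65 (SE 0.14, interval -1.02 to -0.27, limma adjusted p 1). Of this list 0 genes were called by limma, and 1 had an unadjusted p under 0.05, against 3.44% of all genes. Both shDBC1 arrays were below both controls for 3 of the 10 (13.2% of all genes tested) and above for 0 (11.6%). Of all genes, 47.7% were below zero.

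**Figure D4:**
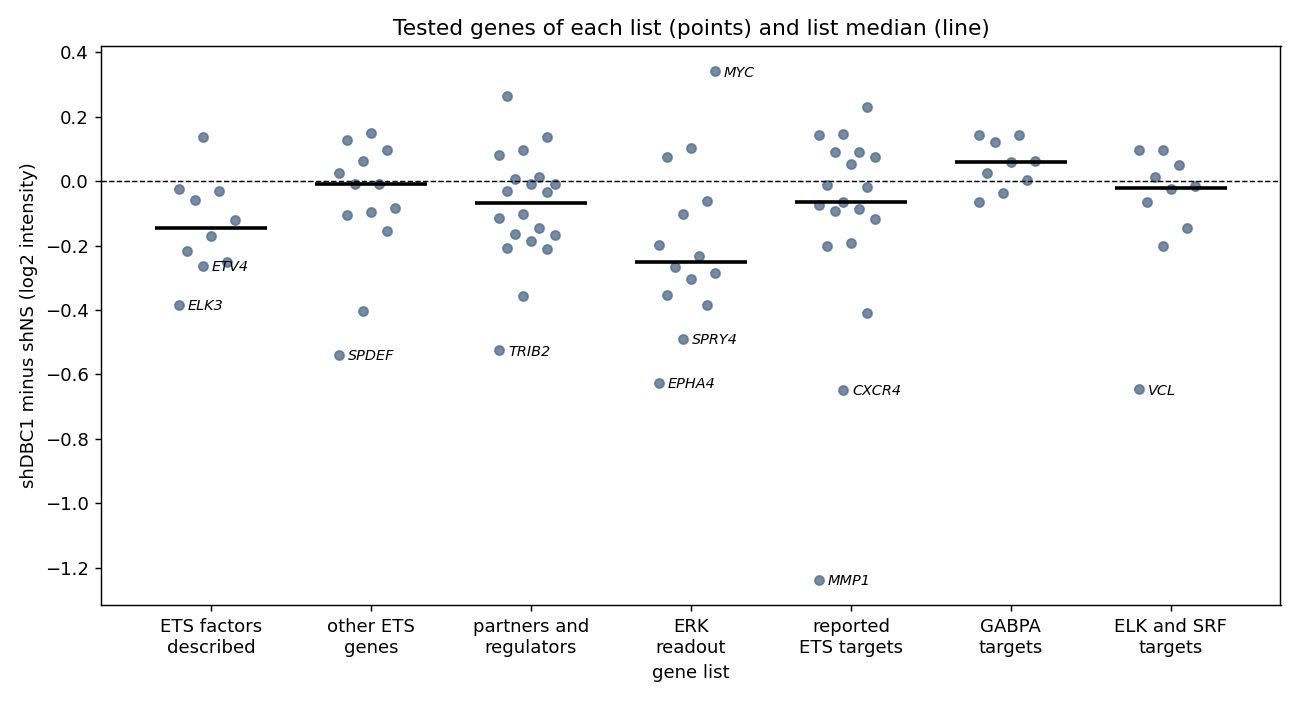
Difference between the lines in log2 intensity (vertical axis) for each tested gene (points) of the 10 ETS factors, the other ETS genes, and the lists of partners and regulators, ERK readouts, reported ETS targets, GABPA targets, and ELK and SRF targets, with the list medians as lines. The medians run from -0.25 for the ERK readouts to 0.06 for the GABPA targets, and MMP1 at -1.24 is the lowest point.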

How the data were processed

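The data are 4 arrays of a human gene expression platform, 2 per line. The deposited values are log2 intensities, 1 per probe set and array, which the authors made with GCOS and RMA (background correction, normalisation between arrays and summary per probe set), per the submitters' processing notes. Versions and the build of the probe annotation: not given in the sources used here. The log2 scale was inferred from the range, 2.52 to 14.1. RMA makes folds of dim genes look smaller, and a shift common to all genes is hidden by normalisation.

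Of 33297 probe sets, 19460 carried 1 symbol in the platform table, 1754 several and 12083 none. The brightest probe set represented each of 18417 genes. Genes below the 25th percentile of mean intensity were left out. Levels are not compared between genes. R 4.3.3 and limma 3.58.1 were used to compare the groups (lmFit and eBayes with group alone, two-sided, Benjamini-Hochberg adjustment over 13813 genes, threshold 0.05). The procedure was tested on simulated data with independent noise on each array, so without any deviation shared by arrays of the same number. Lists were described by counts and medians, with no list test. Nothing in the labels says what a replicate number shares.

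The members and lists were chosen with earlier results of these data known. The genes named were the 10 members, CCAR2, SIRT1, each tested ETS gene, the 3 genes of smallest p in each other list, and MMP1, CXCR4, PLAU, DUSP6, CIC, COP1, SRF and GABPB1. COX5B, ERBB2 and CUL4A were added after their values were seen, and so were the genes below the filter and the markers. No genes were ranked by likeness of pattern, since 4 arrays are too few.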

Additional observations from a re-analysis of the deposited data

How the results depend on the processing

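All alternatives were planned: median centring, repeated quantile normalisation, no filter or one at the 50th percentile, a trended prior, averaged probe sets, a replicate block, and leaving out each array. The count of 0 genes called, and of 0 among the 10 ETS factors, was the same in all of them except the replicate block, where 113 of all genes (0.818%) passed (94 lower, 19 higher) and 0 of the 10. Deviations from the group means correlated at 0.653 (across genes) between arrays of the same number. The numbers share no stated origin, so the fit without the block is the one reported. With the replicate block CCAR2 (-1.06, limma adjusted p 0.0232), MMP1 (-1.24, 0.0184) and EPHA4 (-0.63, 0.0420) passed, ELK3 had the smallest adjusted p of the 10 (0.212), and CXCR4 and VCL did not pass (0.0568 and 0.0682).

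The sign of 9 of the 10 differences was negative under each scaling and with averaged probe sets. A filter or prior cannot change a difference of group means, so those settings say nothing on the sign. With an array left out, 8 (shNS array 1), 7 (shNS array 2), 8 (shDBC1 array 1) and 9 (shDBC1 array 2) of the 10 were negative. GABPA was 0.0286 on its other probe set. Repeated quantile normalisation turned SIRT1 to 0.0015, PLAU to 0.0019, CIC to 0.0105 and EHF to 0.0023, and median centring turned COP1 to -0.0134.

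With 1 array left out, the median of the 10 genes ranged from -0.244 to -0.100, that of ERK readouts from -0.29 to -0.0941, that of other ETS genes from -0.0461 to 0.034, that of reported ETS targets from -0.128 to 0.0112, that of ELK and SRF targets from -0.0507 to 0.0202, that of partners and regulators from -0.0847 to 0.00511 and that of GABPA targets from 0.0051 to 0.0625. Among single genes that turned, ETV1 ranged from -0.28 to 0.22, ELF4 from -0.0966 to 0.0474 and GABPA from -0.53 to 0.029. SIRT1 ranged from -0.12 to 0.0935, PLAU from -0.11 to 0.0819, DUSP6 from -0.59 to 0.19, CIC from -0.0871 to 0.0673, COP1 from -0.083 to 0.0965 and SRF from -0.30 to 0.0102. ETV2 ranged from -0.0407 to 0.093, FEV from -0.12 to 0.10, ELF2 from -0.31 to 0.0048, ELF3 from -1.01 to 0.20, ELK4 from -0.28 to 0.0895, SPIB from -0.0931 to 0.22, EHF from -0.13 to 0.12 and COX7A2 from -0.0174 to 0.26. A fit without 1 array leaves part of the difference between replicate numbers in the comparison and assumes that the lone array varies like the others. Precision is limited by 2 arrays per group, and signal over background was not analysed here.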
